A study of Homo sapiens with 6 samples.

Results

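The 9 genes described here encode transcription factors of the luminal mammary epithelium, GATA3, FOXA1, TFAP2C, TFAP2A, XBP1, SPDEF, ELF3, ELF5 and EHF, and they were followed through the chromatin compartments of T47D cells during E2 treatment and in tamoxifen resistance. They were chosen by name for their role in the luminal lineage, as 9 of 20083 protein-coding genes of the GENCODE annotation on hg19. For each gene the 100 Kb bins that overlap the gene body and 5 bins on either side were read, which gave 91 distinct bins of the 27898 that had a score in all 6 libraries. ELF5 and EHF lie side by side and share most of these bins.

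T47D is an established estrogen receptor-positive (ER+) line from human breast cancer. The parental line went through 72 h of hormone starvation, after which T0 was taken without E2, and T1, T4, T16 and T24 were taken following exposure to 100 nM E2 for 1, 4, 16 or 24 h. A tamoxifen-resistant T47D line (TamR) formed the sixth condition. The labels call the TamR cells untreated and give them routine medium, the study's methods describe culture of TamR cells with 100 nM tamoxifen, and neither source gives the number of clones in the line. Contacts were measured with tethered chromatin conformation capture (TCC), a form of Hi-C with ligation on a solid surface, in 1 library per condition.

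The value analysed is the first eigenvector of the corrected matrix of contacts between chromosomes, given as 1 score for each 100 Kb bin and printed here after multiplication by 1000. Bins with a score above 0 belong to compartment A, the active and gene-rich chromatin, and bins below 0 to compartment B, which is inactive. Scores are scaled within a library, so each score was also read as a percentile among the scored bins of its own library. The depth behind a score is unknown, since the files hold no contact counts. With 1 library per condition no difference has a replicate check and no test was made, and the spread of the 5 parental libraries, which are 5 conditions and not replicates, is given as mean ± SD in place of a replicate error. Over all scored bins the median SD of the parental libraries was 0.44. TamR stood apart from the parental libraries genome-wide, with 43.6% of bins below and 35.0% above all 5 of them. Compartment scores hold no expression, so the labelled cell line could not be checked against markers.

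GATA3 is a zinc finger factor required for the formation and upkeep of luminal cells, and FOXA1 is a forkhead factor that opens compacted chromatin and makes it accessible to the estrogen receptor. With the estrogen receptor they form the core of the regulatory network of ER+ breast cancer, and TFAP2C and TFAP2A, members of the AP-2 family, bind many of the same enhancers. XBP1 is a basic leucine zipper factor of the unfolded protein response that is widely expressed in ER+ tumours. SPDEF, ELF3, ELF5 and EHF belong to the ETS family, in which ELF5 directs the alveolar, milk-producing branch of the luminal lineage and SPDEF, ELF3 and EHF act in secretory and other epithelial differentiation.

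The sequences before the starts of GATA3 and FOXA1 are shown because these genes had the lowest scores and the largest differences in percentile. Each is the 250 bases before the start of the canonical GENCODE transcript on GRCh37, written 5′ to 3′ along the gene, with matches to the motifs named below in capitals. They lie at chr10:8096401-8096650 on the plus strand for GATA3 and at chr14:38064455-38064704 on the minus strand for FOXA1.
GATA3: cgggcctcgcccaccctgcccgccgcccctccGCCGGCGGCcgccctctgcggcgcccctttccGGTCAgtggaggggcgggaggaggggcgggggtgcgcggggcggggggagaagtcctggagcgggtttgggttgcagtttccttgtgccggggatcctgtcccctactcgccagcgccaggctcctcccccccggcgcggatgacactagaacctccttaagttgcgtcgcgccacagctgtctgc
FOXA1: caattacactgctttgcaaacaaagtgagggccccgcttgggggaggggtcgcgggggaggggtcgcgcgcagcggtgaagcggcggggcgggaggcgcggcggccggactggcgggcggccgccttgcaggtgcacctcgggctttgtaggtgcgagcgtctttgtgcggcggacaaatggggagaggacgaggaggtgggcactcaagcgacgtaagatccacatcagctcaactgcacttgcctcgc
The GC content of these stretches was 73.6% for GATA3 and 67.2% for FOXA1.

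The motifs searched on both strands of these windows were AGATAA for GATA factors, TGTTTAC for forkhead factors, the full estrogen response element, GGTCA for its core, GCCNNNGGC for AP-2, CCGGAAGT for ETS factors and AAGCTT, the HindIII site. The core is contained in the full element. In the GATA3 window an AP-2 match lay 218 to 210 bases and a GGTCA match 186 to 182 bases before the start, and 25.6% and 30.7% of 19818 promoter windows of the same length held these motifs. The GATA, forkhead, full estrogen response element, ETS and HindIII motifs, in 6.56%, 2.07%, 0.0353%, 5.13% and 4.05% of all windows, were in neither of the 2 windows shown, and the FOXA1 window held none of the motifs searched. A match describes letters and not a bound site.

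All 9 genes had the bin of their start in compartment A in each of the 5 parental libraries, and 8 of 9 did in TamR, GATA3 being the exception. The start bins of protein-coding genes were in A in 75.9 to 78.4% of cases across the 6 libraries, against 44% to 47.5% of all bins, so a place in A was the common state of a coding gene. Of coding gene starts, 71.6% were in A in all 6 libraries.

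**Figure D1:**
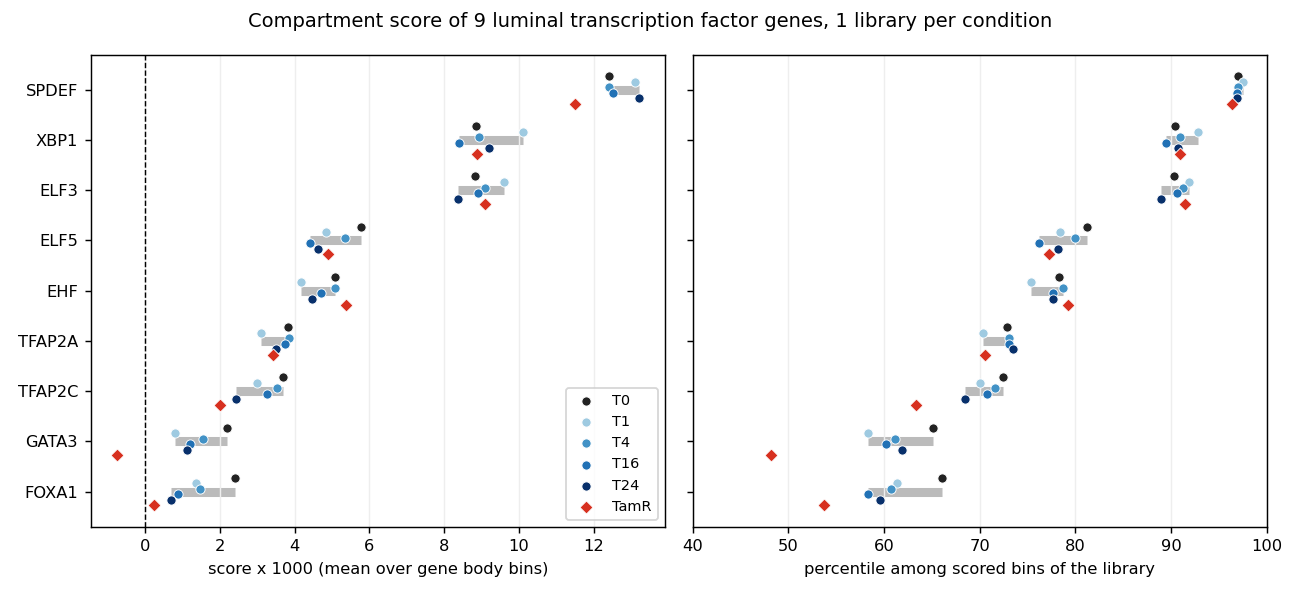
Compartment score (left, multiplied by 1000) and percentile among the scored bins of the library (right) of the gene body of 9 luminal transcription factor genes, with 1 point per library and a grey bar for the range of the 5 parental libraries. GATA3 is the only gene left of the border at 0, in TamR at -0.76, and SPDEF is at the top in every library.

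The members spanned much of the A side and fell into 5 levels in parental cells. SPDEF stood alone at the top with a parental mean of 12.7 ± 0.42 (SD over 5 libraries). XBP1 at 9.10 ± 0.64 and ELF3 at 8.96 ± 0.45 followed, with parental ranges that overlapped. ELF5 at 5.0 ± 0.55 and EHF at 4.70 ± 0.40 overlapped as well, as did TFAP2A at 3.6 ± 0.32 and TFAP2C at 3.17 ± 0.49. GATA3 at 1.37 ± 0.54 and FOXA1 at 1.36 ± 0.66 were lowest and could not be ordered. In percentiles the order ran from 97.1 for SPDEF to 61.3 for GATA3 and 61.2 for FOXA1, so GATA3 and FOXA1 were the members nearest to the border. The start bins of the 9 genes had 40.6 to 49.9% GC, against a median of 39.8% over scored bins, and 13 to 32 HindIII sites, against a median of 29.

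GATA3 (chr10:8087341-8117161, plus strand) was in compartment A in the 5 parental libraries and in compartment B in TamR. Its gene body covers 2 bins, with a mean score of 2.20 in T0, 0.79 in T1, 1.55 in T4, 1.21 in T16, 1.11 in T24 and -0.76 in TamR. T0 was the highest library, the 4 E2 libraries were lower, and TamR lay below all of them and across the border. The difference between TamR and the parental mean was -2.13, and the percentile was 48.2 in TamR against 61.3 in parental cells, a difference of -13.1 points. TamR lay outside the parental range of 0.79 to 2.20. It was not extreme for the genome, since 15.9% of scored bins had a difference as low or lower, and the 5th percentile over all bins was -3.95.

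The bins around GATA3 changed with it. In T0 the compartment A that holds the gene ran from chr10:7800001-9300000, and it spanned 1300 to 1500 Kb in the 5 parental libraries. In TamR the gene lay in a compartment B of 5300 Kb (chr10:6300001-11600000). The bins from chr10:7900001-9200000, 13 in a row, were in A in all 5 parental libraries and in B in TamR, and GATA3 was the only protein-coding gene that starts there. Their mean score was 1.88 in T0, 0.56 in T1, 1.34 in T4, 1.13 in T16, 1.04 in T24 and -1.34 in TamR. Genome-wide 375 runs of that kind were found, of which 6 were longer.

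Upstream of GATA3 the difference had the other sign. The 3 bins of chr10:7500001-7800000, where ITIH2 and ITIH5 start, were in B in every library and higher in TamR than in all parental libraries. The first of them had -4.42 in T0, -2.98 to -3.62 with E2 and -2.35 in TamR. In parental cells the GATA3 gene body was 1.37 to 2.17 above the mean of its 10 flanking bins. In TamR this step was 0.41. In T0 the bins after the gene had 1.61 to 2.36, and its own 2 bins had 2.12 and 2.29. The step thus rested on the upstream bins in B. The bin next to these 3 upstream bins, on the side of GATA3, holds the starts of TAF3, ATP5F1C and KIN. It had 0.23 in T0, -0.20 to -0.51 with E2 and -0.23 in TamR. This bin was near the border throughout and counts as changed from T0 with E2 as well.

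FOXA1 (chr14:38058757-38065264, minus strand) stayed in compartment A in all 6 libraries, at a score that was lowest in TamR. Its bin had 2.40 in T0, 1.37 in T1, 1.47 in T4, 0.88 in T16, 0.69 in T24 and 0.23 in TamR. The late E2 libraries were lower than the early ones in score, though in percentile T16 at 58.3 was below T24 at 59.6, T24 having the smallest share of bins in A (44%). TamR was below the parental range, with a difference of -1.13 from the parental mean of 1.36 ± 0.66, and its percentile of 53.7 differed by -7.53 points. Of all scored bins 31.8% had a difference as low or lower. TTC6, which starts 0.43 Kb from FOXA1, shares this bin.

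The compartment A around FOXA1 was cut back in T16, T24 and TamR. It spanned 7200 Kb (chr14:31000001-38200000) in T0, T1 and T4, 300 Kb in T16 and 200 Kb in T24 and TamR. The flank of B at higher coordinates was close by in every library. The loss of length in T16 came from 1 bin, chr14:37800001-37900000, with 0.35, 0.16 and 0.59 in T0, T1 and T4 against -0.11 in T16, -0.55 in T24 and -1.13 in TamR. The next 3 bins away from the gene were in A in all parental libraries and in B in TamR. Among them, the bin where MIPOL1 and SLC25A21 start had 2.42 in T0, 2.10 in T1, 2.45 in T4, 1.67 in T16, 0.82 in T24 and -0.66 in TamR. FOXA1 itself remained above the mean of its 10 flanking bins, by 2.5 in T0, 1.29 to 1.85 with E2 and 1.82 in TamR. This step rested on the flank in B, since bins at lower coordinates could exceed FOXA1, as with 2.98 against 0.88 in T16. The flank at lower coordinates was lower in TamR together with FOXA1. In the flank of B, the bin chr14:38400001-38500000 had -4.28 in T0 and -4.32 in TamR.

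**Figure D2:**
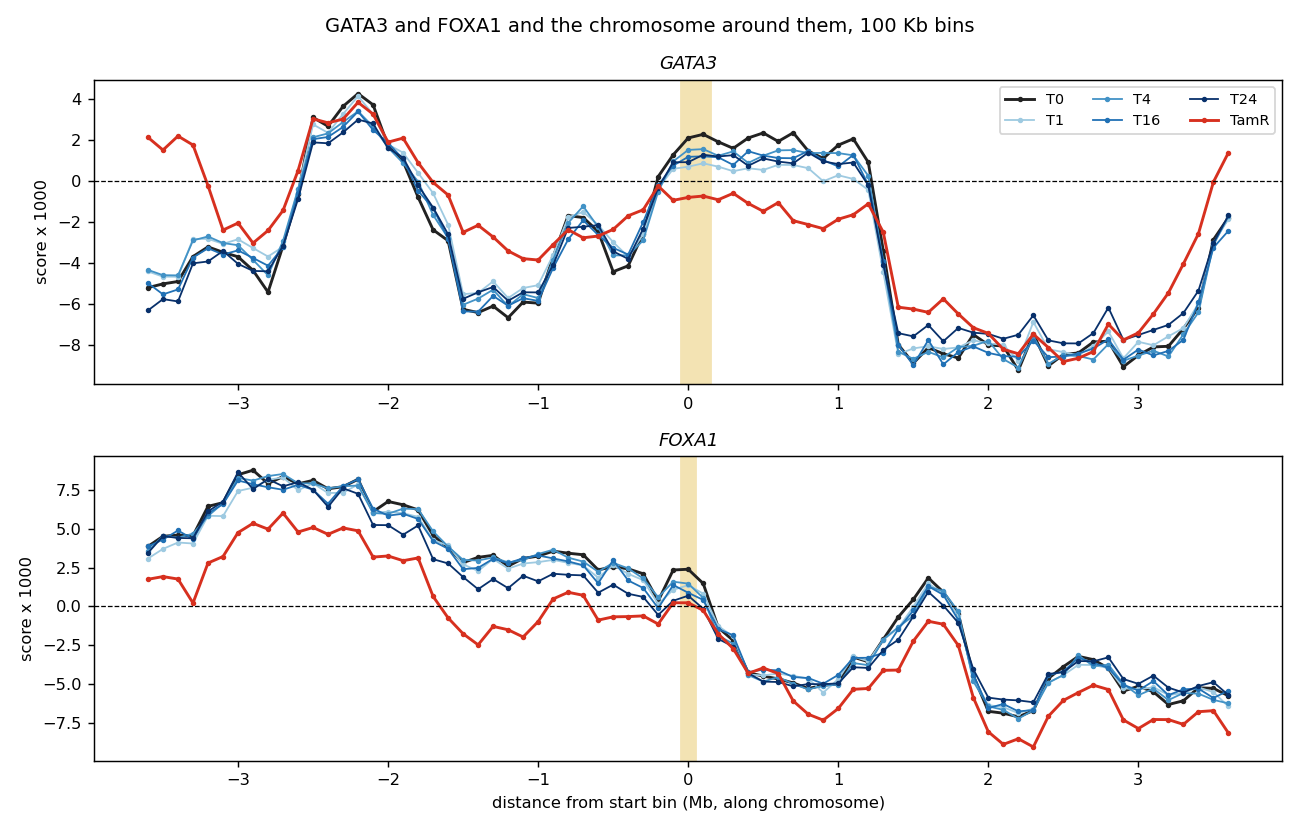
Score (multiplied by 1000) of each 100 Kb bin against distance in Mb from the start bin of GATA3 (top) and FOXA1 (bottom), with 1 line per library, the gene body bins shaded and the border at 0 dashed. Over GATA3 and the bins after it the TamR line stays below 0 while the parental lines lie above it, and at FOXA1 all lines are above 0, TamR lowest at 0.23.

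The windows of GATA3 and FOXA1 held most of the bins that changed compartment. Of the 91 bins 15 changed between T0 and TamR (16.5%, 95% Wilson interval 10.3 to 25.4%), all from A to B. Of them 9 were among the 12 bins of GATA3, 5 among the 11 of FOXA1 and 1 among the 11 of ELF3, and the other windows had none. Over all scored bins 13.9% changed, 6.27% from A to B and 7.67% from B to A. Since the windows lie mostly in A, the closer background is the 13.6% of bins in A in T0 that were in B in TamR, against 15 of 80 (18.8%) in the windows. None of the 11 window bins in B in T0 was in A in TamR, where 14.3% of such bins were genome-wide. Neighbouring bins are not independent, so the interval is too narrow, and the share is near the background.

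Most of the changed bins were close to the border in parental cells already. Of the 15, 13 had a score within the lowest 10% of absolute scores in at least 1 parental library, and with the bins that were weak in this sense left out 2 of the remaining 75 changed. The other 2 changed bins, the last of the ELF3 window and the first of the FOXA1 window, were weak in TamR alone. This filter was added after the values were seen. Of the window bins 65 (71.4%) were in A in all 6 libraries, against 38.2% of all bins. The start bins of GATA3 and FOXA1 are themselves weak in at least 1 library. Of the 77 window bins in A in all 5 parental libraries 12 (15.6%) were in B in TamR, against 9.34% genome-wide. Among them, 11 of the 17 with a parental mean up to 2.5 were in B in TamR, and 1 of the 60 above it was. Genome-wide these shares were 32.1% and 2.76%. The limit of 2.5 was chosen after the values were seen. The number of window bins in A was 80 in T0, 79 in T1 and T4, 78 in T16, 77 in T24 and 65 in TamR.

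**Figure D3:**
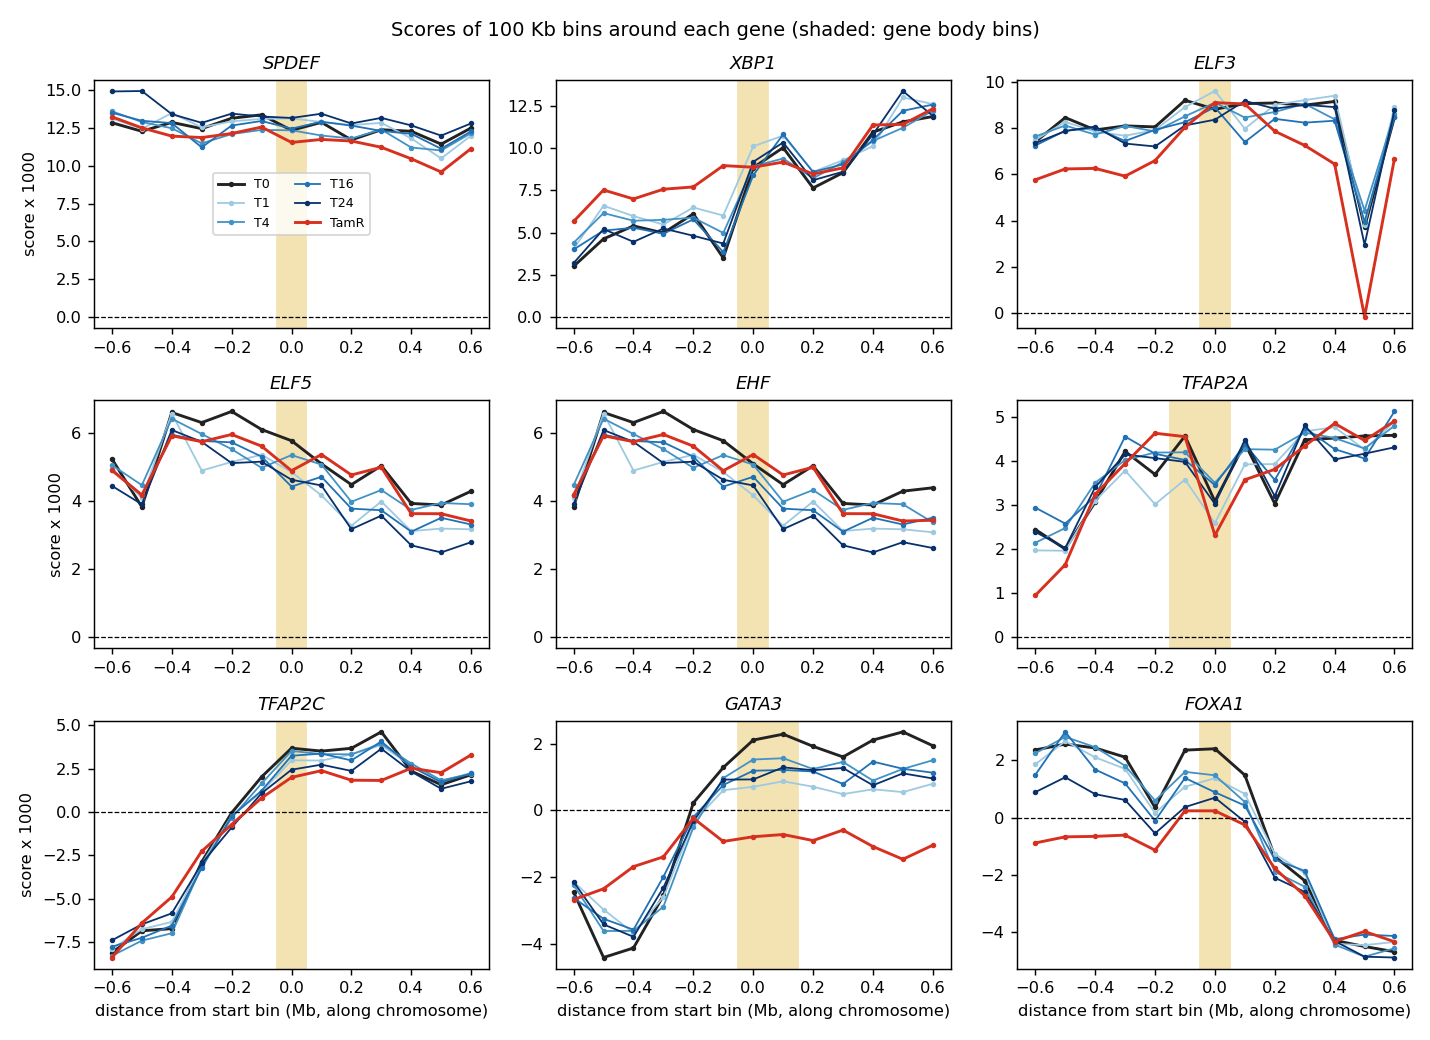
Score (multiplied by 1000, y axis with its own range in each panel) of the 100 Kb bins around each of the 9 genes against distance from the start bin in Mb along the chromosome, with 1 line per library, the gene body bins shaded and a dashed border at 0. The TamR line is below the parental lines and below 0 over GATA3, where the gene body mean is -0.76 in TamR, and above the parental lines in the bin beside XBP1, at 8.98.

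TFAP2C (chr20:55204362-55214339, plus strand), the AP-2 member most often linked to ER+ cells, sat 2 bins inside the edge of its compartment A, at chr20:55100001, and this edge was in the same bin in all 6 libraries. Its bin had 3.68 in T0, 2.98 in T1, 3.52 in T4, 3.25 in T16, 2.44 in T24 and 2.0 in TamR. TamR was below all parental libraries, with a difference of -1.18 from their mean and of -7.33 percentile points. Of the 11 bins of the window 7 were in A and 4 in B in every library. The gene stood 2.26 above the mean of its flanks in TamR and 2.71 to 3.62 above it in parental cells. Those flanks include the 4 bins in B.

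TFAP2A (chr6:10393419-10419892, minus strand) depended on which of its 2 bins was read. The mean of both was 3.83 in T0, 3.09 in T1, 3.85 in T4, 3.74 in T16, 3.50 in T24 and 3.43 in TamR, so TamR was inside the parental range. The bin of the start, which also holds the start of GCNT2, had 2.59 to 3.51 in parental cells and 2.31 in TamR, a difference of -0.82 from their mean. All 12 bins of the window were in A in all libraries.

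XBP1 (chr22:29190543-29196585, minus strand) showed no difference between TamR and parental cells beyond their spread, while the bins beside it did. Its bin had 8.86 in T0, 10.1 in T1, 8.94 in T4, 8.40 in T16, 9.20 in T24 and 8.88 in TamR. TamR was inside the parental range, with a difference of -0.22 from the mean. Of the 11 window bins 6 were higher in TamR than in all parental libraries. The bin before it, where TTC28 starts, had 3.49 in T0, 6.01 in T1, 4.98 in T4, 3.84 in T16, 4.35 in T24 and 8.98 in TamR. XBP1 was 0.79 to 1.88 above its flanks in parental cells and 0.07 above them in TamR, so the gene no longer stood out from its surroundings. The compartment A around it spanned 6800 to 7800 Kb in parental cells and 11900 Kb in TamR.

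SPDEF (chr6:34505579-34524110, minus strand) kept the highest score of the members in all libraries. Its bin had 12.4 in T0, 13.1 in T1, 12.4 in T4, 12.5 in T16, 13.2 in T24 and 11.5 in TamR. TamR was below all parental libraries, with a difference of -1.15 from their mean, and 7 of the 11 window bins were too. In percentile the difference was -0.676 points, from 97.1 to 96.4. Bins with a parental mean above 10 had a median difference of -1.03, so SPDEF was close to other bins of its level. The compartment A around the gene spanned 15000 to 15200 Kb in parental cells and 10400 Kb in TamR.

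ELF3 (chr1:201977073-201986311, plus strand) held its score in TamR while its flanks were lower. Its bin had 8.81 in T0, 9.61 in T1, 9.10 in T4, 8.90 in T16, 8.36 in T24 and 9.10 in TamR. The 10 flanking bins had a mean of 8.17 in T0, 8.0 in T1, 7.93 in T4, 7.58 in T16, 7.75 in T24 and 6.35 in TamR, and 9 of the 11 window bins were lower in TamR than in all parental libraries. ELF3 stood 0.62 to 1.6 above the mean of its flanks in parental cells and 2.75 above it in TamR. The last bin of the window, chr1:202400001-202500000, had 2.96 to 4.43 in parental cells and -0.16 in TamR, and the compartment A around ELF3 spanned 5800 Kb in each parental library and 1900 Kb in TamR.

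ELF5 (chr11:34500338-34546740, minus strand) and EHF (chr11:34642640-34684835, plus strand) start 95.9 Kb apart in neighbouring bins and share 10 of the 11 bins of each window, so their values are not independent. ELF5 had 5.77 in T0, 4.85 in T1, 5.35 in T4, 4.42 in T16, 4.62 in T24 and 4.89 in TamR, with TamR inside the parental range. EHF had 5.09 in T0, 4.16 in T1, 5.07 in T4, 4.71 in T16, 4.45 in T24 and 5.36 in TamR, which was above the parental range by a small margin and 0.67 above its mean. EHF was the only member above its parental range in TamR. Both genes lay in 1 compartment A of 3300 to 3800 Kb in all libraries.

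Counted by the bin of the start, 5 of the 9 members were below all parental libraries in TamR (GATA3, FOXA1, TFAP2C, TFAP2A and SPDEF), against 45.9% of coding gene starts. EHF was the 1 above, against 30.2%. Over the 91 window bins 44 (48.4%) were below, against 43.6% of all bins, and 18 (19.8%) were above, against 35.0%. The members as a group were therefore near the background in the share that was lower in TamR.

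With E2 the members kept their compartments, and 5 of them had a lower score at all 4 time points than in T0. For EHF the margin was small, with 5.07 in T4 against 5.09 in T0. In percentile EHF was higher in T4 (78.7) than in T0 (78.3), and the count was 4. None of the 9 start bins changed compartment in T1, T4, T16 or T24, where 2.46, 2.34, 2.99 and 4.39% of coding gene starts did. The mean of the 4 E2 libraries minus T0 was -1.29 for FOXA1, -1.04 for GATA3, -0.96 for ELF5, -0.63 for TFAP2C and -0.49 for EHF. Of coding gene starts 24.4% had T0 above all 4 E2 libraries, and 27.7% had T0 below them, which held for none of the members. FOXA1, GATA3 and ELF5 were among the lower differences of the genome, with 2.17%, 5.09% and 6.57% of scored bins as low or lower. The median over bins was -0.02 and the 5th percentile -1.04. By parental mean, the median was -0.18 for bins at 0 to 2.5, -0.24 above 2.5 to 5 and -0.15 above 5 to 10. T0 was inside the E2 range for TFAP2A at -0.28, XBP1 at 0.31, SPDEF at 0.43 and ELF3 at 0.18. Without T1 the differences of XBP1 and ELF3 were -0.01 and -0.02, so their sign rested on that library.

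**Figure D4:**
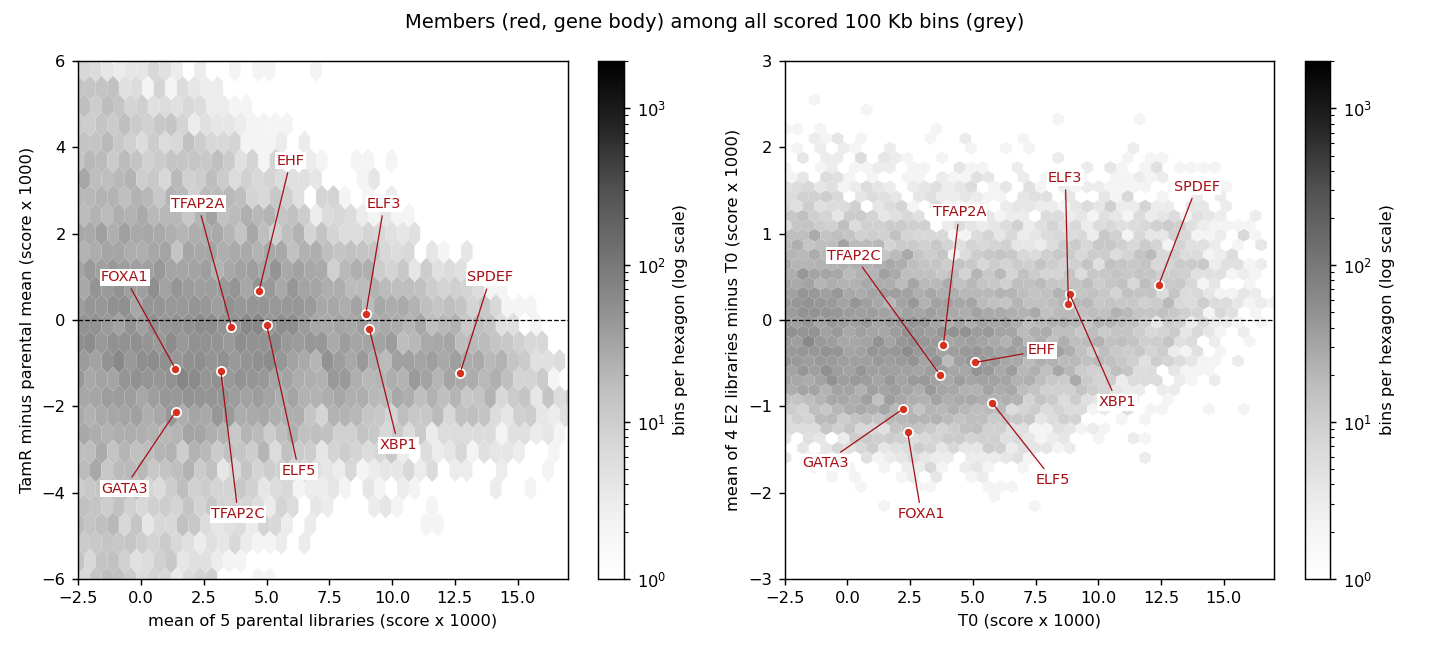
Gene bodies of the 9 members (red) among all scored 100 Kb bins (grey, shaded by the number of bins on a log scale), with the TamR minus parental mean difference against the parental mean on the left and the E2 mean minus T0 difference against T0 on the right, all scores multiplied by 1000 and bins outside the axes not drawn. GATA3 is the lowest member on the left at -2.13 and FOXA1 on the right at -1.29, both inside the cloud of bins.

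Since each of these differences holds the single T0 library, a difference made by E2 and a T0 library that stands apart cannot be told apart. The level of GATA3 did not order with time after E2, since T1 was lowest, and that of FOXA1 was lowest in T24. The difference between T24 and T0 correlated with GC content across bins at 0.2, and its part in these values was not tested. Few bins changed compartment with E2. Of the 91 bins, 1 changed in T1, 1 in T4, 2 in T16 and 3 in T24 (1.1, 1.1, 2.2 and 3.3%), against 3.16, 3.05, 3.8 and 5.17% of all bins. The bins were 1 beside GATA3 at each time point and, beside FOXA1, 1 in T16 and 2 in T24. Of all 91 bins, 39 (42.9%) had T0 above all 4 E2 libraries, against 26.7% of bins genome-wide, and 12 (13.2%) had T0 below, against 23.1%. Every window held at least 1 of the 39 bins, in unequal numbers. The window of EHF, which shares most of its bins with that of ELF5, had 10. GATA3 had 9, TFAP2C 7, ELF3 5 and FOXA1 4, and TFAP2A, XBP1 and SPDEF had 1 or 2 each. Neighbouring bins are not independent, and the difference between these shares was not tested.

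Genes of related families and of the same lineage were read in the bin of their annotated gene start. The members' median difference of TamR from the parental mean was -0.82, against -0.45 over the 19657 coding genes with a score. This median is the start bin of TFAP2A, whose gene body differed by -0.17. By gene body the middle member was XBP1 at -0.22, so the order against coding genes depended on the region read. Of 23 paralogues of the GATA, FOXA, AP-2 and ETS families, 17 were in A in T0 and 17 in TamR, and 0 changed compartment, against 9.72% of coding gene starts. Their median difference was 1.04. In TamR 15 were above all parental libraries, against 30.2% of coding gene starts, and 5 were below, against 45.9%. The members and their paralogues therefore had medians of opposite sign. All 9 members but 17 of the 23 paralogues were in A in T0, and some paralogues lie side by side, such as TFAP2B and TFAP2D. The medians thus come from unlike levels, and their difference was not tested.

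Of 28 luminal partners and targets, 25 were in A in T0 and 22 in TamR, with a median difference of -0.84. The 3 that changed were all from A to B (10.7%, against 4.52% of coding gene starts), and some of the 28 share bins, which leaves 25 distinct ones. Only a start in A can change this way, and in T0 89.3% of the list was in A, against 77.7% of coding gene starts. In TamR 13 of the 28 were below all parental libraries, against 45.9% of coding gene starts, and 7 were above, against 30.2%. The share below was near the background. ESR1, which encodes the estrogen receptor, had 4.90 in T0, 4.03 in T1, 3.94 in T4, 3.68 in T16, 3.26 in T24 and -0.05 in TamR, at the border. PGR, which encodes the progesterone receptor and is a target of the estrogen receptor, had 0.17 in T0, 0.80 to 1.27 with E2 and -6.92 in TamR. TBX3, a T-box factor of mammary development, had 1.63 in T0, 1.28 to 2.48 with E2 and -0.75 in TamR.

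Of 16 basal and stem cell regulators and markers 9 were in A in T0 and 11 in TamR, with a median difference of 0.61. The 2 of 16 that changed went from B to A, where 5.2% of coding gene starts did so. Only a start in B can change this way. In T0 56.2% of the list was in A, against 77.7% of coding gene starts. The list thus held relatively more starts in B, and these shares are not directly comparable. In TamR 9 of the 16 were above all parental libraries, against 30.2% of coding gene starts, and 3 were below, against 45.9%. The 16 genes lie in 15 distinct bins, and the 2 named here are those that changed. ID4, an inhibitor of DNA binding found in basal cells, had -1.36 in T0, -0.39 to -1.02 with E2 and 4.37 in TamR. EGFR, the epidermal growth factor receptor, had -1.87 in T0, -0.75 to -0.80 with E2 and 0.37 in TamR.

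Of 10 genes of the XBP1 pathway, which serves protein folding and secretion, 9 were in A in T0 and 8 in TamR, with a median difference of -0.77. SEC61B, a subunit of the translocation channel of the endoplasmic reticulum, changed from A to B, with 0.81 in T0, 0.51 in T1, 0.17 in T4, -0.25 in T16, -0.06 in T24 and -0.67 in TamR. It was thus in B in T16 and T24 already. XBP1 itself was inside its parental range.

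The genes whose 6 percentiles were most like those of GATA3, by Euclidean distance over the 6 libraries among 19579 genes, were CNOT4 at 3.18 percentile points, CHD6 at 3.33 and TET2 at 4.16. CNOT4 had 2.37 in T0 and -0.79 in TamR, and CHD6 had 2.15 and -0.68. For FOXA1 they were CEP290 and TMTC3, which share a bin, at 2.77. CEP290 had 2.26 in T0, 0.93 in T1, 1.62 in T4, 0.98 in T16, 0.59 in T24 and 0.17 in TamR. Profiles resembling those of GATA3 and FOXA1 were thus present at other loci of the genome. These genes were picked as the nearest in percentiles, and the nearest distances of other genes were not read for comparison.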

How the data were processed

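TCC was analysed in 6 T47D libraries, 1 per condition, grouped by their labels. The authors deposited 1 score per 100 Kb bin of hg19 and library. According to the study's methods, read pairs were aligned iteratively with bowtie2 in HiCLib, low-coverage bins were removed, the highest counts between chromosomes were truncated, the matrix was balanced by iterative correction, and the first eigenvector was taken after removal of contacts within chromosomes. Whether replicate cultures were pooled is not given in the sources used here.

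Squared scores summed to 0.998 to 0.999 in each library. A score of 0 marks a bin without a value, and 27898 of 30376 bins with a value in all 6 libraries were used. Scores were multiplied by 1000. The sign gave the compartment, with the orientation as deposited, which GC content did not reverse in any library. Gene positions came from GENCODE 44 lifted to GRCh37, whose chromosome lengths match the bins, and 15 coding symbols used for more than 1 gene were left out. Percentiles were computed within a library. Shares have 95% Wilson intervals, which cover counting of bins only.

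The text names all 9 members, list genes whose start bin changed compartment between T0 and TamR (at most 6 a list), up to 3 neighbours of a member, and the 3 genes most alike for the 2 members with the largest percentile difference. Some items these rules select are not reported here. The members and lists were chosen with earlier results of these data known. ITIH2, ITIH5 and TTC28 were named after their values were seen. Python 3.11.15, numpy 2.4.6, pandas 2.3.3, scipy 1.17.1 and matplotlib 3.10.9 were used, and the calls were tested on simulated data. The alternatives were another border, percentiles, other windows, 500 Kb bins, weak bins left out and each parental library left out.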

Additional observations from a re-analysis of the deposited data

How the results depend on the processing

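The share of window bins that changed from T0 to TamR was 12.5 to 16.9% under the planned settings other than the removal of weak bins. With bins weak in any library left out it was 0.0%, but this filter uses the TamR score and so removes bins that end near the border. Under settings chosen after the data were seen it was 2.67% with bins weak in a parental library left out and 7.59% without the GATA3 window. The shares at T1, T4, T16 and T24 were each 0.0% with the border at the library median, in 500 Kb bins and with weak bins left out, a filter that again uses the scores compared, and those at T1 and T4 were 0.0% without the GATA3 window. In 500 Kb bins FOXA1 was in B in all 6 libraries, from -0.79 in T0 to -1.77 in TamR, so 8 members were in A in parental cells and 7 in TamR. The number of gene bodies below all parental libraries in TamR was 4, also in percentiles. It was 5 with T1 left out and 4 with any other parental library left out. By start bin or over the window 5 members were below, and 6 gene bodies were below T0 alone. The number with T0 above all E2 libraries was 5. It was 4 in percentiles, and 6 with T4 left out or over the window. Small differences depended on the region read. The TamR minus parental mean difference of XBP1 was -0.22 in its bin and 1.00 over its window, and that of ELF3 was 0.14 and -1.39. No paired analysis was possible because there is 1 library a condition and no result comes from a test. The unknown depth and the single libraries limit every value.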
